A study of Homo sapiens with 4 samples.

Results

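The CDK inhibitor genes are the 8 human genes CDKN1A, CDKN1B, CDKN1C, CDKN2A, CDKN2B, CDKN2C, CDKN2D and CDKN3. They were taken by gene symbol from a table of 27275 rows of gene counts, and all 8 were among the 15840 genes with enough counts to be tested. The study asked what the ribonucleotide reductase subunit RRM2, which supplies deoxynucleotides for DNA synthesis, does in prostate cancer cells. C4-2 cells, an androgen-independent prostate cancer line derived from LNCaP, were transfected with a pool of siRNAs against RRM2 (RRM2 siRNA, 2 libraries) or with a scrambled control siRNA (scrambled siRNA, 2 libraries). Both groups thus carried siRNA and transfection reagent, and no other treatment is given. Within the pool, the effects of single siRNAs cannot be told apart. Separate cultures are not stated for the 2 libraries of either group, so p-values measure library-to-library spread, and that spread may be technical.

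Inhibitors of cyclin-dependent kinases (CDKs) hold back the kinases that drive cells through the cell cycle. The CIP/KIP proteins p21 (CDKN1A), p27 (CDKN1B) and p57 (CDKN1C) bind cyclin and CDK together and chiefly block CDK2 complexes. The INK4 proteins p16INK4a (CDKN2A), p15INK4b (CDKN2B), p18INK4c (CDKN2C) and p19INK4d (CDKN2D) bind CDK4 and CDK6 and keep D-type cyclins from activating them. CDKN3 (KAP) is of another kind, a phosphatase that removes the activating phosphate of CDK2, and its transcript is known to peak in the later phases of the cycle. CDKN1A is a classical transcriptional target of p53.

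The libraries held 29941671 and 28941206 counts with RRM2 siRNA, against 28508906 and 27844121 with scrambled siRNA. RRM2 itself had 118 and 125 normalized counts with RRM2 siRNA, against 1333 and 1239 with scrambled siRNA, a log2 fold change of -3.41 (SE 0.08, adjusted p = 2.60e-13, edgeR quasi-likelihood test). A normalized count is the rounded count scaled to a common library size, and a log2 fold change is RRM2 siRNA over scrambled siRNA. Nuclear ribosomal RNA genes took 2.45% and 6.13% of counts with RRM2 siRNA and 2.14% in each library with scrambled siRNA. The second RRM2 siRNA library thus stood apart in this share. The summed level of 9 luminal prostate markers was 10680 and 10537 CPM (counts scaled to library size) with RRM2 siRNA, against 11553 and 12046 CPM with scrambled siRNA. That of 4 basal markers was 11.99 to 14.7 CPM with RRM2 siRNA and 10.7 to 12.1 CPM with scrambled siRNA, and that of 6 fibroblast, immune and endothelial markers 107 to 111 CPM with RRM2 siRNA and 91.8 to 93.5 CPM with scrambled siRNA. Of the luminal markers 1 rose, 4 fell and 4 did not pass the test. Of 2 tested basal markers the keratin KRT14 rose, averaging 22.8 ± 6.38 normalized counts with RRM2 siRNA and 9.19 ± 2.68 with scrambled siRNA (SD, n = 2 each), and the integrin ITGB4 did not pass the test, at 359 ± 47.7 with RRM2 siRNA and 317 ± 26.0 with scrambled siRNA. Of 5 tested fibroblast, immune and endothelial markers 3 rose. The macrophage marker CD68 averaged 1816 ± 39.2 with RRM2 siRNA and 1447 ± 6.66 with scrambled siRNA, the collagen COL1A1 1100.0 ± 40.4 with RRM2 siRNA and 972 ± 38.3 with scrambled siRNA, and the endothelial marker PECAM1 16.7 ± 3.66 with RRM2 siRNA and 6.15 ± 0.14 with scrambled siRNA. The count of 3 was 1 with DESeq2 and 1 without scrambled siRNA replicate 2, and that of basal markers lay between 0 and 2 over the alternatives. The defining basal markers KRT5 and TP63 and the leukocyte marker PTPRC were each at 0 in at least 1 library and reached at most 2.08, 3.77 and 1.01 normalized counts. The part of other cell types in the results was not tested.

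With RRM2 siRNA, 5 of the 8 CDK inhibitor genes rose at an adjusted p under 0.05, namely CDKN1A, CDKN1B, CDKN2B, CDKN2C and CDKN2D, where 25.4% of all genes tested did. CDKN2A and CDKN3 fell, 2 of 8, where 25% of all genes tested did. CDKN1C did not pass the test. With a fold change over 1.5 as well, CDKN1A, CDKN2B and CDKN2D were higher (3 of 8, against 5.9% of all genes) and CDKN3 was lower (1 of 8, against 5.25%). The libraries of the 2 groups did not overlap in 7 of 8 genes, with 5 above (37.7% of all genes) and 2 below (37.3%). The median log2 fold change of the 8 genes was 0.36, and that of all genes tested was -0.00. In bulk RNA, fewer cells in a given state and less RNA per cell cannot be told apart.

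**Figure D1:**
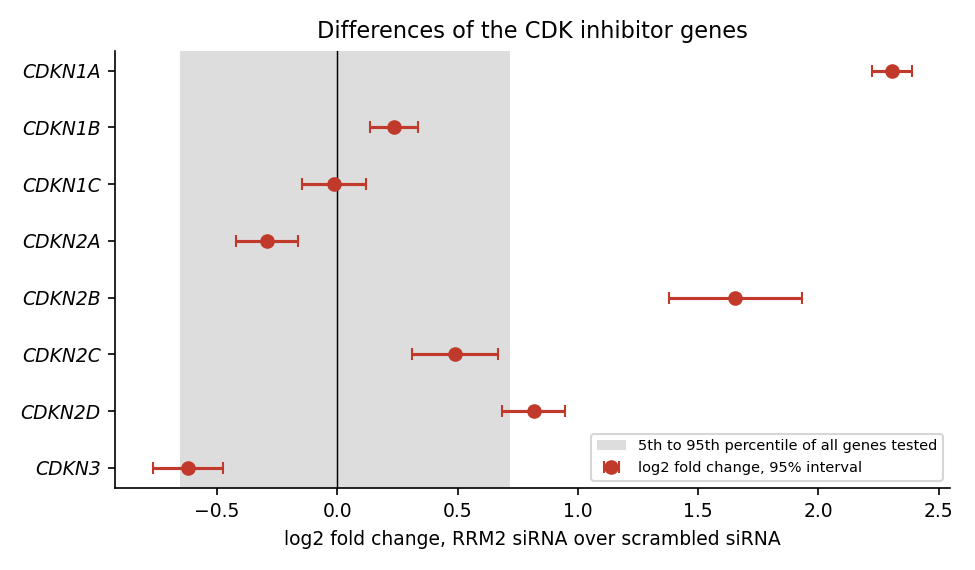
Log2 fold change of each CDK inhibitor gene, RRM2 siRNA over scrambled siRNA, on the horizontal axis, with its 95% interval from the edgeR fit as a bar. The grey band runs from the 5th to the 95th percentile of all genes tested (-0.65 to 0.72), and CDKN1A (2.31), CDKN2B (1.66) and CDKN2D (0.82) lie to its right, while the interval of CDKN1C crosses 0.

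The promoters of the 4 genes that passed both thresholds are shown because they differ in the short elements they hold. Each line gives the 250 bases before the RefSeq gene start, read 5′ to 3′ on the gene's strand, from RefSeq on GRCh38.p14. Capitals mark the GC box GGGCGG, the core of SP1 sites, in the first 3 lines, and the CCAAT box CCAAT and the cell cycle homology region TTTGAA (CHR) in the fourth, on either strand.
CDKN1A: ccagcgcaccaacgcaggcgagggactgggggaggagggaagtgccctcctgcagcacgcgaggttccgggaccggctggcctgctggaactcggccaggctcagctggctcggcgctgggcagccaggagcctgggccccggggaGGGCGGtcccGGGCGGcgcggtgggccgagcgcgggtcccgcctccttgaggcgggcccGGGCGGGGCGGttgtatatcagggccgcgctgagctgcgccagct
CDKN2B: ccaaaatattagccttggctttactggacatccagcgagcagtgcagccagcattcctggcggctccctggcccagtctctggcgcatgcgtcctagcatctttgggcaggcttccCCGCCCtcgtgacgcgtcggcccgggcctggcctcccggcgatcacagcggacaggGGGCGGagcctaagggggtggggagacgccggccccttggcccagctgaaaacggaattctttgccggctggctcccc
CDKN2D: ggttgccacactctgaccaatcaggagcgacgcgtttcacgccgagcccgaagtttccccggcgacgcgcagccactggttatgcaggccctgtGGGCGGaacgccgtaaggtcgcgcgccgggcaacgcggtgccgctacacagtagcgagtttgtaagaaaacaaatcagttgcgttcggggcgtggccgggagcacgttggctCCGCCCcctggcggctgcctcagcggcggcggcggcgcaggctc
CDKN3: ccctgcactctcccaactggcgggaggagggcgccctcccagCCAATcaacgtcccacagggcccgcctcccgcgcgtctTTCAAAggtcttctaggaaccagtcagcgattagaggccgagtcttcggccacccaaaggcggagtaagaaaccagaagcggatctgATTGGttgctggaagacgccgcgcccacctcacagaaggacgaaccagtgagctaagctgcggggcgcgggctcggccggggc
The windows are chr6:36678464-36678713 (plus strand) for CDKN1A, chr9:22009306-22009555 (minus strand) for CDKN2B, chr19:10568980-10569229 (minus strand) for CDKN2D and chr14:54396757-54397006 (plus strand) for CDKN3. That of CDKN1A lies inside the span of its row in the table, which starts further upstream. That of CDKN3 runs past the start of its row, at base 54396868, so part of it lies inside that row. Those of CDKN2B and CDKN2D reach only the edge of their rows.

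The 3 genes that rose past the fold threshold all held GC boxes. CDKN1A held 4, which begin 104, 94, 45 and 40 bases before the start, the last 2 sharing a base. CDKN2B held 2, at 134 and 78 bases, and CDKN2D held 2, at 156 and 44 bases, with 1 CCAAT box at 234 bases that is left in lower case. A GC box also stood in the window of CDKN1B, in 1 of 2 windows of CDKN2A and in 2 of 3 windows of CDKN2C. CDKN3, which fell, held no GC box, but 2 CCAAT boxes at 208 and 83 bases and 1 CHR at 170 bases. CCAAT boxes also stood in other members that rose, 2 in CDKN1B at 174 and 50 bases and 1 in CDKN2C at 95 bases. The CHR is known as the binding site of the DREAM complex, which represses cell cycle genes when pocket proteins are active. Over 35116 promoter windows of the same length, 42.6% held a GC box, 32.0% a CCAAT box and 13.3% a CHR on either strand, so each element alone is common. Among the members, an E-box (CACGTG, 6.345% of windows) stood only in CDKN2C, in 2 of 3 windows. None of the windows of the 7 members found in the table, all but CDKN1C, held the exact TATA box letters TATAAA (10.7% of windows). Variants, such as tatat in the CDKN1A line, were not counted. Nor did any of these windows hold an E2F site (TTTCCCGC, TTTGGCGC or TTTCGCGC, 2.32%) or a forkhead site (GTAAACA, 2.98%). A full p53 site was taken as 2 exact half-sites RRRCWWGYYY (R is A or G, W is A or T, Y is C or T). That pattern was absent too, but only 9 of the 35116 windows (0.0256%) held it, so its absence here says little. These matches are descriptions of letters in short windows, and sites outside them were not searched.

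CDKN1A, the gene of p21, had the smallest p-value of all 15840 genes tested. It had 27631 and 26805 normalized counts with RRM2 siRNA, against 5387 and 5622 with scrambled siRNA. Both RRM2 siRNA libraries were far above both scrambled siRNA libraries. The means were 27218 ± 584 with RRM2 siRNA and 5504 ± 166 with scrambled siRNA (SD, n = 2 each), a log2 fold change of 2.31 (SE 0.04, 95% interval 2.22 to 2.39), which is 4.95-fold. The adjusted p was 7.74e-15 (edgeR quasi-likelihood test). By size of the rise it was number 12 of the 12330 genes that averaged 100 or more normalized counts. The row spans chr6:36676460-36687340 on the plus strand. DINO, a noncoding RNA gene on the opposite strand within this span, had 26 and 13 counts with RRM2 siRNA and 1 and 5 with scrambled siRNA. Whether reads were counted by strand is not stated, but these counts are small beside the 29354 and 26392 counts of CDKN1A with RRM2 siRNA and the 5346 and 5400 with scrambled siRNA.

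The other CIP/KIP genes showed far smaller differences. CDKN1B, the gene of p27, had 3536 and 3390 normalized counts with RRM2 siRNA, against 2839 and 3043 with scrambled siRNA. The groups did not overlap, but the rise was small, with a log2 fold change of 0.24 (SE 0.05, adjusted p = 0.000676, edgeR quasi-likelihood test), which is 1.18-fold. CDKN1C, the gene of the imprinted inhibitor p57, had 1108 and 1055 normalized counts with RRM2 siRNA, against 1016 and 1170 with scrambled siRNA. The scrambled siRNA libraries lay on either side of the RRM2 siRNA libraries. Its log2 fold change was -0.01, with a 95% interval of -0.15 to 0.12 and an adjusted p of 0.876, so a small difference in either direction within that interval remains possible. The rows are chr12:12717270-12722383 on the plus strand for CDKN1B and chr11:2883218-2885766 on the minus strand for CDKN1C.

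**Figure D2:**
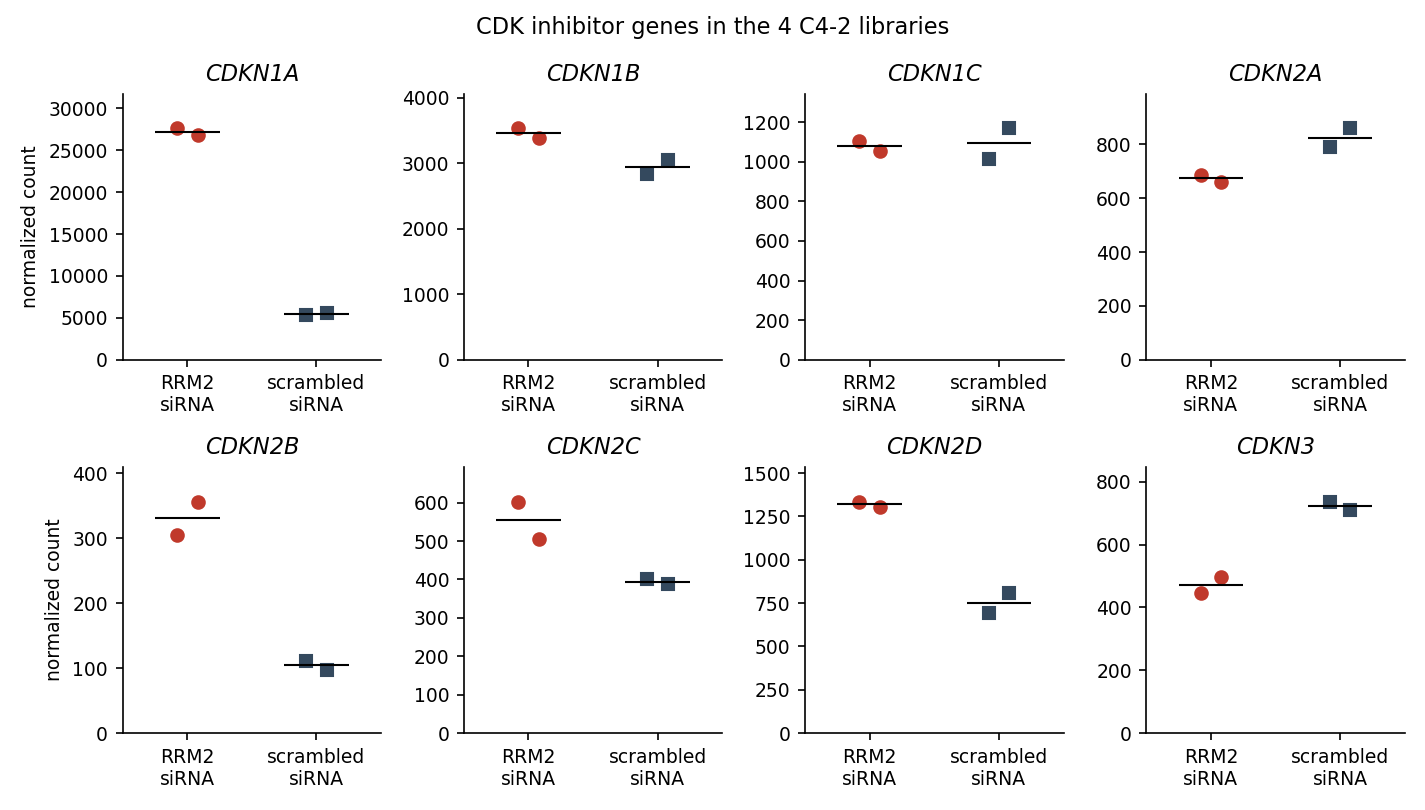
Normalized counts of the 8 CDK inhibitor genes in each library, with a panel and a vertical axis from 0 for each gene; circles are RRM2 siRNA, squares scrambled siRNA and lines the mean of 2 libraries. Groups separate in every panel but that of CDKN1C, and CDKN1A shows the widest gap, with means of 27218 with RRM2 siRNA and 5504 with scrambled siRNA.

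Of the INK4 genes, CDKN2B and CDKN2A lie side by side on chromosome 9 and differed in opposite directions. CDKN2B, the gene of the TGF-beta-responsive inhibitor p15INK4b, had 306 and 356 normalized counts with RRM2 siRNA, against 112 and 97.9 with scrambled siRNA. Both RRM2 siRNA libraries were well above both scrambled siRNA libraries. The means were 331 ± 35.8 with RRM2 siRNA and 105 ± 9.89 with scrambled siRNA (SD, n = 2 each), a log2 fold change of 1.66 (SE 0.13, 95% interval 1.38 to 1.93, adjusted p = 8.42e-08, edgeR quasi-likelihood test), which is 3.15-fold. By size of the rise it was number 28 of those 12330 genes. Its row spans chr9:22002903-22009314 on the minus strand.

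CDKN2A had 685 and 661 normalized counts with RRM2 siRNA, against 790 and 860 with scrambled siRNA. Here both RRM2 siRNA libraries were lower. Its log2 fold change was -0.29 (SE 0.06, 95% interval -0.42 to -0.16, adjusted p = 0.000884, edgeR quasi-likelihood test). The row spans chr9:21967752-21994492 on the minus strand, and 8410 bases separate it from that of CDKN2B. CDKN2A makes both p16INK4a and, from another first exon and reading frame, the MDM2 inhibitor p14ARF, and these transcripts share the gene's count and cannot be told apart here. The noncoding gene CDKN2B-AS1 (ANRIL), which runs antisense through the locus, had 9 and 6 counts with RRM2 siRNA and 8 and 9 with scrambled siRNA, too few to be tested.

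CDKN2C and CDKN2D, the INK4 genes outside that locus, both rose. CDKN2D, the gene of p19INK4d, had 1335 and 1307 normalized counts with RRM2 siRNA, against 695 and 807 with scrambled siRNA. The groups were well apart. The means were 1321 ± 19.6 with RRM2 siRNA and 751 ± 78.9 with scrambled siRNA (SD, n = 2 each), a log2 fold change of 0.82 (SE 0.06, 95% interval 0.68 to 0.95, adjusted p = 6.11e-08, edgeR quasi-likelihood test), which is 1.76-fold. CDKN2C, the gene of p18INK4c, had 602 and 505 normalized counts with RRM2 siRNA, against 400 and 389 with scrambled siRNA. The RRM2 siRNA libraries differed more from each other than the scrambled siRNA libraries did, yet both were higher. Its log2 fold change was 0.49 (SE 0.08, 95% interval 0.31 to 0.67, adjusted p = 0.000179, edgeR quasi-likelihood test), or 1.41-fold, under the fold threshold. It was 0.35 without RRM2 siRNA replicate 1 and 0.61 without RRM2 siRNA replicate 2, of which the second is over that threshold. Rows of U1 small nuclear RNA copies, each spanning several copies, overlap the span of the CDKN2C row on the other strand. Each of these rows had 39 and 453 counts with RRM2 siRNA and 22 and 35 with scrambled siRNA. The overlap is of row spans. Whether any copy lies within exons of CDKN2C, and whether reads were mixed, was not tested. The rows are chr19:10566462-10568980 on the minus strand for CDKN2D and chr1:50968695-50974638 on the plus strand for CDKN2C.

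CDKN3 was the member that fell most. It had 445 and 498 normalized counts with RRM2 siRNA, against 737 and 711 with scrambled siRNA. Both RRM2 siRNA libraries were below both scrambled siRNA libraries. The means were 471 ± 37.1 with RRM2 siRNA and 724 ± 18.02 with scrambled siRNA (SD, n = 2 each), a log2 fold change of -0.62 (SE 0.07, 95% interval -0.77 to -0.48, adjusted p = 2.57e-06, edgeR quasi-likelihood test). Without RRM2 siRNA replicate 1 it was -0.54, which still passed the test but not the fold threshold of 1.5, which is 0.58 on the log2 scale. Its row spans chr14:54396868-54420217 on the plus strand. The words AAGTCCA and AGTCCAA, which stand in 4 of 5 coding transcripts of RRM2, were in 1 of 9 coding transcripts of CDKN3. They were searched because an earlier analysis of these same data had tied them to falls, so the match is not independent of these values. These words were in no coding transcript of the other 7 members and in 33.1% of 19669 coding genes. Their part in the fall of CDKN3 was not tested.

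Levels of the genes were set side by side as CPM per kilobase of the longest coding transcript. CDKN1A was the most abundant member in both groups, at 417 ± 8.95 with RRM2 siRNA and 84.3 ± 2.55 with scrambled siRNA (SD, n = 2 each). CDKN1B came next, at 45.2 ± 1.34 with RRM2 siRNA and 38.4 ± 1.88 with scrambled siRNA. CDKN2B was the least abundant in both, at 2.94 ± 0.32 with RRM2 siRNA and 0.93 ± 0.09 with scrambled siRNA, although its fold change was the second largest of the 8 genes. CDKN2C stood above it, at 6.62 ± 0.83 with RRM2 siRNA and 4.72 ± 0.09 with scrambled siRNA.

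The order changed among the 4 genes in between. With RRM2 siRNA the level per kilobase was 32.2 ± 0.48 for CDKN2D, 19.4 ± 0.67 for CDKN1C, 18.2 ± 0.46 for CDKN2A and 15.3 ± 1.20 for CDKN3. With scrambled siRNA CDKN3 led these 4 at 23.5 ± 0.58, before CDKN2A at 22.3 ± 1.34, CDKN1C at 19.6 ± 1.96 and CDKN2D at 18.3 ± 1.93. In that group neither CDKN3 and CDKN2A nor CDKN1C and CDKN2D differed beyond the spread of their libraries. This order rests on the length used. Per kilobase of all exons together, with scrambled siRNA CDKN1C led these 4 at 19.5 (number 3 of 8), before CDKN2D at 17.3 (number 4), CDKN3 at 15.5 (number 5) and CDKN2A at 9.07 (number 6). With RRM2 siRNA on that scale the order was CDKN2D at 30.5, CDKN1C at 19.3, CDKN3 at 10.1 and CDKN2A at 7.40. The first 2 and last 2 of the 8 places were the same on both scales.

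**Figure D3:**
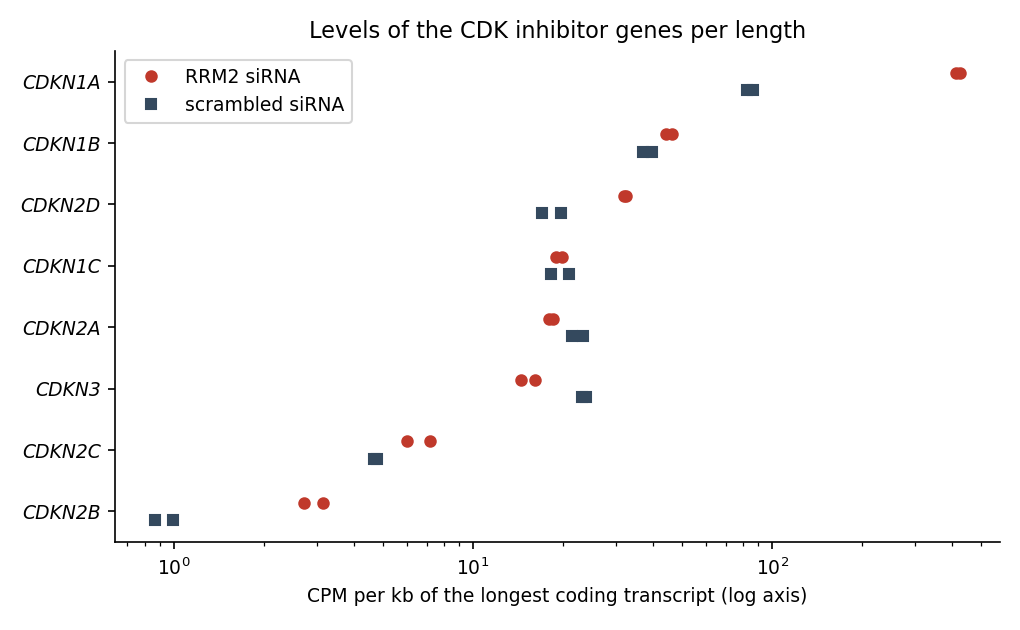
Level of each CDK inhibitor gene in each library, in CPM per kilobase of the longest coding transcript on a log axis; circles are RRM2 siRNA and squares scrambled siRNA, and genes run from the highest to the lowest level with RRM2 siRNA. CDKN1A stands apart, at 417 on average with RRM2 siRNA and 84.3 with scrambled siRNA, and CDKN2D is number 3 with RRM2 siRNA and number 6 with scrambled siRNA, which is number 4 per kilobase of all exons.

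Summed per kilobase, the 8 genes reached 557 ± 11.2 with RRM2 siRNA and 212 ± 8.89 with scrambled siRNA, a ratio of 2.62. Most of that gap was CDKN1A, which made up 74.9% of the sum with RRM2 siRNA and 39.7% with scrambled siRNA. The other 7 genes together gave 140.0 ± 2.25 with RRM2 siRNA and 127.8 ± 6.34 with scrambled siRNA, a ratio of 1.10. Within the 4 INK4 genes the sum was 60.0 ± 1.45 with RRM2 siRNA and 46.3 ± 3.09 with scrambled siRNA, and the makeup shifted. CDKN2D held 53.7% of it with RRM2 siRNA and 39.5% with scrambled siRNA, while CDKN2A held 30.3% with RRM2 siRNA and 48.2% with scrambled siRNA. CDKN2B remained a small part, at 4.91% with RRM2 siRNA and 2.02% with scrambled siRNA. Per kilobase of all exons, a scale added after seeing the data, the share of CDKN2A was 15.9% with RRM2 siRNA and 28.9% with scrambled siRNA and that of CDKN2D 65.5% with RRM2 siRNA and 55.1% with scrambled siRNA, so CDKN2D held the largest share in both groups on that scale. These sums and shares describe transcripts and carry no test.

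The genes around the inhibitors were described by lists, each read against the 25.4% of all genes that rose and the 25% that fell. Of 29 tested p53 target genes other than CDKN1A, 28 rose and 1 fell, with a median log2 fold change of 0.87. SFN, the 14-3-3 sigma gene, averaged 827 ± 30.2 normalized counts with RRM2 siRNA and 91.5 ± 10.2 with scrambled siRNA, and DDB2, a damage recognition gene, 2097 ± 6.24 with RRM2 siRNA and 515 ± 30.7 with scrambled siRNA (SD, n = 2 each). The exception was GDF15, a secreted cytokine, with a log2 fold change of -0.17 (adjusted p = 0.0117, edgeR quasi-likelihood test) and an adjusted p between 3.00e-10 and 0.160 under the alternatives, not passing with DESeq2 or without RRM2 siRNA replicate 2. MDM2, a ubiquitin ligase gene and one of the 29, rose by 0.65 on the log2 scale.

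Of 18 tested transcriptional regulators of CIP/KIP genes, 4 rose, 5 fell and 9 did not pass the test, with a median log2 fold change of 0.05. MYC, which with the zinc finger protein ZBTB17 (MIZ1) is known to repress CDKN1A and CDKN2B, showed the largest difference. It had 2885 and 2910 normalized counts with RRM2 siRNA, against 7955 and 7705 with scrambled siRNA, a log2 fold change of -1.43 (SE 0.04, adjusted p = 2.05e-12, edgeR quasi-likelihood test). TFAP4, a MYC-induced repressor of CDKN1A, averaged 183 ± 0.86 normalized counts with RRM2 siRNA and 359 ± 0.38 with scrambled siRNA, a log2 fold change of -0.97. ZBTB17 did not pass the test, at 0.16 (adjusted p = 0.0610). FOXO3, a known activator of CDKN1B, rose by 0.30 on the log2 scale. Of 12 tested regulators of the INK4 locus, 3 rose, 2 fell and 7 did not pass, with a median of -0.02. Without RRM2 siRNA replicate 2, the rise of ID1 (0.28) and the fall of EZH2 (-0.15) did not pass. ID1 kept its call under 12 of 13 alternatives, but EZH2 under only 9 of 13. The count of falls lay between 1 and 4 over the alternatives. CBX7, a Polycomb protein known to repress CDKN2A, rose by 0.58 on the log2 scale, with means of 2669 ± 30.0 normalized counts with RRM2 siRNA and 1790 ± 21.8 with scrambled siRNA.

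Of 15 genes for the degradation of CIP/KIP proteins, 5 rose and 8 fell, with a median log2 fold change of -0.12. With DESeq2 3 rose and 5 fell, and 5 fell without RRM2 siRNA replicate 1 or with scaling by library size alone. SKP2, the F-box protein that marks p27 for degradation, had 676 and 580 normalized counts with RRM2 siRNA, against 1025 and 953 with scrambled siRNA. Both RRM2 siRNA libraries were lower, with a log2 fold change of -0.65 (SE 0.07, adjusted p = 1.81e-06, edgeR quasi-likelihood test). CDC20, which activates the anaphase-promoting complex that degrades p21 in mitosis, fell by 1.07 on the log2 scale. MDM2 showed the largest rise of this list, at 0.65. MDM2, CDC20 and PCNA also stand in other lists here, so the counts of the lists are not independent. PCNA, the platform on which the CRL4-CDT2 ligase takes up p21, fell by 0.58, and CUL4B, a scaffold of that ligase, rose by 0.45. DTL, the CDT2 receptor itself, rose by 0.25 (adjusted p = 0.00479), which did not pass with DESeq2 or without RRM2 siRNA replicate 1, where the adjusted p was 0.0781, the highest of a range from 0.000652 over the alternatives.

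Genes of cyclins and CDKs went in both directions. Of 14 in that list, 5 rose, 7 fell and 2 did not pass the test, with a median log2 fold change of -0.13. The list is wider than the targets of the inhibitors, as it also holds CDK7 and its partners CCNH and MNAT1. CCNH was among those that fell, and CDK7 and MNAT1 were those that did not pass. The count of falls was 6 or 7 over the alternatives. CDK2, the main target of p21, averaged 3093 ± 125 normalized counts with RRM2 siRNA and 1994 ± 47.6 with scrambled siRNA, a log2 fold change of 0.63 (SE 0.05, adjusted p = 5.40e-08, edgeR quasi-likelihood test). Of the INK4 targets, CDK4 was lower, by -0.25 on the log2 scale, and CDK6 was higher, by 0.44. Of the E-type cyclins, the partners of CDK2, CCNE2 rose by 1.09 and CCNE1 was lower, by -0.32 (adjusted p = 0.000147). Of the D-type cyclins, CCND1 and CCND2 were lower, by -0.34 and -1.20, and CCND3 was higher, by 0.30 (adjusted p = 4.07e-05). Of the pocket proteins, which CDKs phosphorylate, RBL1 and RBL2 fell, with log2 fold changes of -0.45 and -0.34. RB1 had 1416 and 1365 normalized counts with RRM2 siRNA, against 1300 and 1143 with scrambled siRNA, a log2 fold change of 0.19 (adjusted p = 0.0146) that did not pass without RRM2 siRNA replicate 1, without scrambled siRNA replicate 2 or with DESeq2.

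Cell cycle genes were counted by phase. Of 20 G2 and mitosis genes, 1 rose, 18 fell and 1 did not pass the test, with a median log2 fold change of -0.60, beside -0.62 for CDKN3. The 1 that rose, the kinase gene AURKB at 0.22 on the log2 scale, did not pass with DESeq2, without RRM2 siRNA replicate 2 or without scrambled siRNA replicate 2. PLK1, a mitotic kinase, averaged 438 ± 6.90 normalized counts with RRM2 siRNA and 1024 ± 69.7 with scrambled siRNA, a log2 fold change of -1.23. KIF20A, a kinesin of cell division, differed by -1.09. Of 20 G1/S genes, 15 rose, 4 fell and 1 did not pass, with a median of 0.19. E2F1, the transcription factor that RB1 restrains, averaged 1897 ± 46.7 normalized counts with RRM2 siRNA and 1273 ± 52.4 with scrambled siRNA, a log2 fold change of 0.58 (adjusted p = 2.13e-07, edgeR quasi-likelihood test). CDT1, a licensing factor, rose by 0.58 as well. Of the G1/S genes that fell, PCNA differed by -0.58 and CCNE1 by -0.32.

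**Figure D4:**
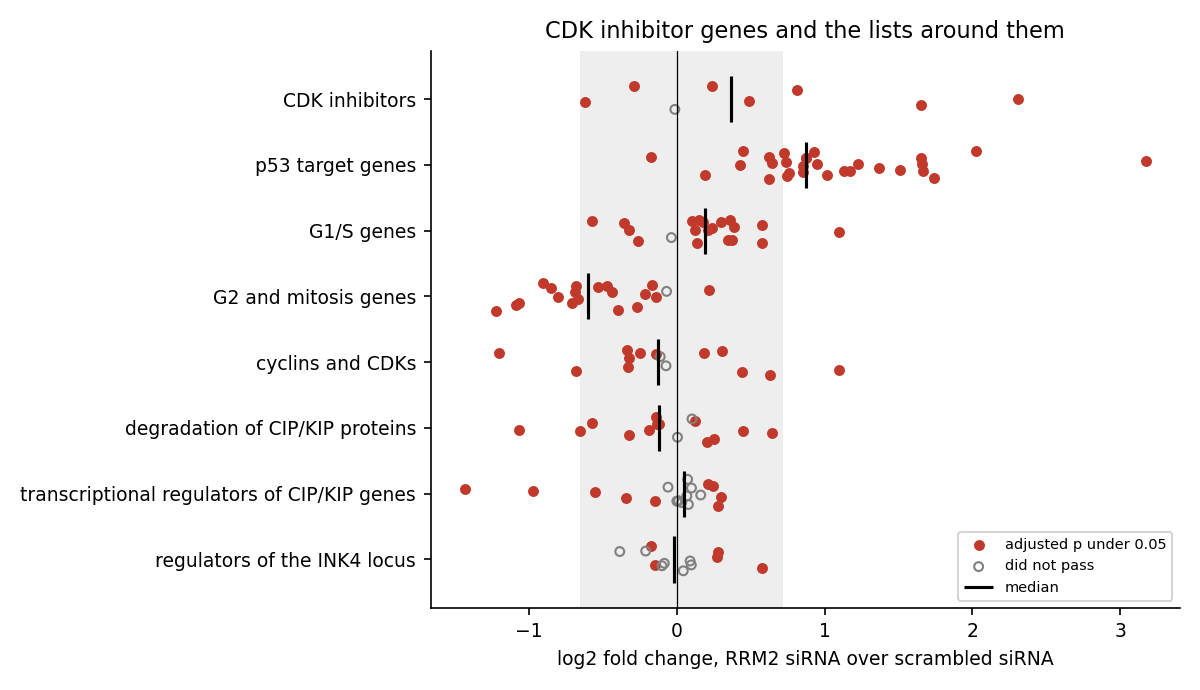
Log2 fold change, RRM2 siRNA over scrambled siRNA, of each tested gene in the CDK inhibitor list and in the lists around it; filled circles passed an adjusted p under 0.05, open circles did not, vertical lines are list medians and the grey band spans the 5th to the 95th percentile of all genes tested. The CDK inhibitors spread from -0.62 to 2.31, while the p53 target genes lie mostly to the right (median 0.87) and the G2 and mitosis genes mostly to the left (median -0.60).

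Genes with the most similar pattern over the 4 libraries were found among the same 12330 genes, as the smallest Euclidean distance between log2 CPM values centred on each gene's mean. For CDKN1A they were BLNK (distance 0.191), APOBEC3C (0.236) and TRIM22 (0.254). For CDKN2B they were EDN2 (0.125), PLK3 (0.200) and FDXR (0.226). CDKN1B lay closest to ZNF329 (0.0128), CDKN2A to FLJ10038 (0.0134), CDKN2C to EGLN1 (0.0357), CDKN2D to S100A10 (0.0389) and CDKN3 to EEFSEC (0.0399). Distances were larger for CDKN1A and CDKN2B, whose differences were the widest, and with 4 libraries they describe little more than the size of the difference between groups.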

How the data were processed

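RNA-seq of C4-2 cells gave 2 libraries per group. The table that the authors deposited holds estimated counts from Partek Flow, not normalized, of which 71.0% to 71.7% per library are whole. Its version, aligner, annotation and genome build were not given in the sources used here. Counts were rounded. In 27 rows a date stood in place of the symbol, and these were not named. Positions were matched to GRCh38.p14, where 99.6% of 24815 matched symbols overlapped their row, all 8 members included.

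Genes passing filterByExpr were tested after TMM scaling by the quasi-likelihood test (glmQLFit, glmQLFTest) of edgeR 4.0.16 in R 4.3.3, with Benjamini-Hochberg adjustment over 15840 genes, at an adjusted p under 0.05 and, where stated, a fold change over 1.5. Standard errors and 95% intervals come from the same fit. The coefficient of variation between libraries was 3.87%. Chi-square per degree of freedom between libraries, without structural RNA genes, was 1.98 with RRM2 siRNA and 2.95 with scrambled siRNA, so neither pair was within sampling noise. Scripts were tested on simulated data.

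The members and lists were chosen with earlier results of these data known. Named genes are the members, RRM2, up to 2 genes per direction and list by size of the log2 fold change, known partners and regulators, and the 3 nearest genes of each member; the choice among them for print was made with values known. The result of 1 gene is not reported here. Transcript lengths and words are from GENCODE v29. The alternatives changed the tool (DESeq2 1.42.0, or voom of limma 3.58.1), the scaling (size factors of DESeq2, or library size), the filter (none, or 10 counts in each library), the rounding (none) or the fold threshold (2), added a replicate block, or left out structural RNA genes or 1 library at a time. After seeing the data, summed levels per kilobase of all exons were added.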

Additional observations from a re-analysis of the deposited data

How the results depend on the processing

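Of 104 log2 fold changes of the 8 genes under the alternatives, 102 kept their direction and their side of the threshold. The exceptions were those of CDKN1C, -0.01 in all 4 libraries, which became 0.02 without RRM2 siRNA replicate 2 and 0.0892 without scrambled siRNA replicate 2 (range with a library left out -0.118 to 0.0892). At an adjusted p under 0.05, 5 genes were higher and 2 lower under every alternative. Without RRM2 siRNA replicate 2, the log2 fold change of CDKN2C was 0.61, over the fold threshold of 1.5 (0.58 on the log2 scale). Without RRM2 siRNA replicate 1, that of CDKN3 was -0.54, short of that threshold. With a fold change over 1.5, 3 of the 8 genes were higher and 1 was lower, against 2 and 0 at a fold change over 2. Over all genes, 935 were higher, against 615 with DESeq2 and 412 at a fold change over 2, and 831 were lower, against 256 at a fold change over 2. Same-numbered libraries did not deviate together (correlation 0.00621) and share only a number. A replicate block gave 4157 higher and 4094 lower genes at an adjusted p under 0.05, against 4029 and 3954 without it, and changed no call among the 8 genes. Of 806 results of other named genes, 777 kept their call and 0 reversed. With 2 libraries per group, the 95% interval of CDKN1C (-0.15 to 0.12) gives the size of a difference that these data could not resolve.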
